A study of Homo sapiens with 6 samples.

Results

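The human silencing hub (HUSH) complex and the proteins it works with were read at the RNA level in an endometrial cancer cell line with and without the transcription factor gene ETV4. The 8 genes were taken by symbol from the deposited table of 26364 genes: the core subunits FAM208A, MPHOSPH8 and PPHLN1, and the 5 partners FAM208B, MORC2, SETDB1, ATF7IP and TRIM28. All 8 were present. The set was chosen by measured values of these same libraries, because FAM208A was low in the knockout clones. The members' values in the knockout comparison are therefore a description with no test.

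Ishikawa cells are an established, estrogen-responsive line from an endometrial adenocarcinoma. There were 6 poly(A)-selected libraries from 3 lines: parental Ishikawa cells, Ishikawa ETV4 KO clone 1 and Ishikawa ETV4 KO clone 2. Each line received 0.1% DMSO, the vehicle, or 10 nM E2 (17β-estradiol, the main estrogen), with 1 library for each line and treatment. Every line, the parental one included, had first spent 5 days in medium stripped of steroid hormones. The labels give the exposure as 8 h in the protocol and as 1 h among the sample characteristics. How ETV4 was disrupted is not given in the sources used here. Each knockout line is 1 clone, so a clone's own history cannot be told apart from the loss of ETV4, and the parental line has no replicate library within a treatment. The 2 clones are the only replicates, and p-values measure the spread between these few libraries.

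HUSH silences retroelements, transgenes and other transcribed DNA by spreading trimethylation of histone H3 lysine 9 (H3K9me3). FAM208A, also called TASOR, is the scaffold that holds the complex together, MPHOSPH8 (MPP8) binds H3K9me3 through its chromodomain, and PPHLN1 (periphilin) binds RNA. SETDB1 writes the mark, ATF7IP stabilizes SETDB1 in the nucleus, and MORC2 is an ATPase that compacts chromatin at HUSH targets. TRIM28 (KAP1) is the corepressor through which KRAB zinc finger proteins recruit SETDB1, and FAM208B (TASOR2) is a paralog of FAM208A. ETV4 belongs to the ETS family, whose members bind DNA at a GGAA core.

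Promoter sequences were taken from RefSeq (build GRCh38.p14) for 7 of the 8 genes, as windows from 250 bases before to 50 bases after a gene start. TRIM28 was not among them. The 3 printed here are 1 window of FAM208A, the member that was low in the clones, and 1 window each of PPHLN1 and FAM208B. Those of PPHLN1 and FAM208B hold the longer ETS-type motif and are printed for contrast. They lie at chr3:56683216-56683515 on the minus strand for FAM208A, chr12:42325917-42326216 on the plus strand for PPHLN1 and chr10:5684588-5684887 on the plus strand for FAM208B. Each reads 5′ to 3′ on the gene's strand, and capitals mark every GGAA or its reverse complement TTCC.
FAM208A: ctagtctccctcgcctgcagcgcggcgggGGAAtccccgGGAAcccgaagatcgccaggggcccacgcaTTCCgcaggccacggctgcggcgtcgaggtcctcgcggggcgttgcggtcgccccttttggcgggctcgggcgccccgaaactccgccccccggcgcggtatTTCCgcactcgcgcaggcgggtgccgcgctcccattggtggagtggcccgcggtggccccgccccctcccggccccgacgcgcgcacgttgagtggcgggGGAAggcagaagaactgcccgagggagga
PPHLN1: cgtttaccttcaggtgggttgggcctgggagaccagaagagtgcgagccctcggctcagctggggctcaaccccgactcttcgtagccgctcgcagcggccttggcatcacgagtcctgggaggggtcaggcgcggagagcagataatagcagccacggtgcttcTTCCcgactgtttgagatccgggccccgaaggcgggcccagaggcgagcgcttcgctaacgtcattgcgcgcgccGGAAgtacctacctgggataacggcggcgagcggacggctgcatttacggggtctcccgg
FAM208B: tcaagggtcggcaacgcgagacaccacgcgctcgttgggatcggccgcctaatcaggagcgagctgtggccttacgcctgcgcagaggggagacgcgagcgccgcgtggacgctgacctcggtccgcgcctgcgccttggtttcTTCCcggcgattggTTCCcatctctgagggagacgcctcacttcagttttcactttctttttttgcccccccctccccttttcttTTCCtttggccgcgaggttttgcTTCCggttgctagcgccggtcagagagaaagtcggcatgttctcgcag

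All 3 FAM208A windows held 5 GGAA cores, counted on both strands, and none held the longer CCGGAA. The printed window overlaps another of them, and the 5 cores of that pair are the same sites. The core is common: 95.5% of 35116 promoter windows of this length held at least 1. The longer form CCGGAA, which contains the core, was found in 17.2% of windows on either strand. The still longer form CCGGAAG contains both and was found in 10.3%. The 7 members with a promoter sequence had 17 windows, and CCGGAAG occurred in 1 window each of 3 members, FAM208B, PPHLN1 and SETDB1. The background shares are per window and not per gene. These matches describe letters in a window and are not binding sites.

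Library totals ran from 28037392 to 36829479 counts, and 17755 to 18658 genes were detected. Levels are in CPM, the counts of a gene relative to its library total after TMM scaling. All 8 members were among the 15611 genes that passed the filter on low counts. The targeted gene ETV4 was at 19.7 and 28.4 CPM in parental cells (DMSO, E2), against 3.41 and 2.95 in clone 1 and 2.42 and 2.77 in clone 2. The clones kept 14.8% ± 3.52 (SD, n = 2) of the parental ETV4 level in DMSO and 10.1% ± 0.449 (SD, n = 2) in E2. All 7 epithelial and endometrial markers checked, among them EPCAM, PAX8 and ESR1, were expressed in every library. Of 5 markers of other cells, PTPRC, PECAM1, COL1A2 and LUM stayed at or below 0.721 CPM, while COL1A1 ran from 44.8 to 75.2 CPM.

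The parental DMSO library stood apart from the others. It was the lowest or the highest of the 6 for 63.9% of all genes tested, and for 6 of the 7 members other than FAM208A. Results that rest on it are given below with and without it.

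FAM208A was low in both clones under both treatments. The parental line had 607 counts in DMSO and 855 in E2, which is 20.4 and 22.8 CPM. Clone 1 had 28 counts in DMSO (95% exact Poisson interval 18.6 to 40.5, counting error only) and 48 in E2, or 0.782 and 1.65 CPM. Clone 2 had 78 counts in DMSO (interval 61.7 to 97.3) and 46 in E2, or 2.66 and 1.57 CPM. The 4 clone libraries lay far below both parental ones, with no overlap. In these bulk libraries, fewer cells with the transcript and less transcript per cell cannot be told apart.

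Against the parental library of the same treatment, FAM208A was 26.1-fold lower in clone 1 and 7.66-fold lower in clone 2 in DMSO, and 13.9-fold and 14.5-fold lower in E2. The clones kept 8.44% ± 6.52 (SD, n = 2) of the parental level in DMSO and 7.04% ± 0.228 (SD, n = 2) in E2. The clones thus lay apart in DMSO and close together in E2. The fitted difference over both treatments was -3.70 on the log2 scale (SE 0.39), and -3.83 without the parental DMSO library. Among the 12367 genes averaging 2 CPM or more, FAM208A ranked 8 from the lowest difference in clone 1 and 23 in clone 2 in DMSO, and 10 and 8 in E2. It was the 1 member of 8 that was at least 2-fold lower in both clones under both treatments, a pattern found for 0.436% of all genes tested. This is the contrast that chose the set, so the count carries no evidence of its own.

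**Figure D1:**
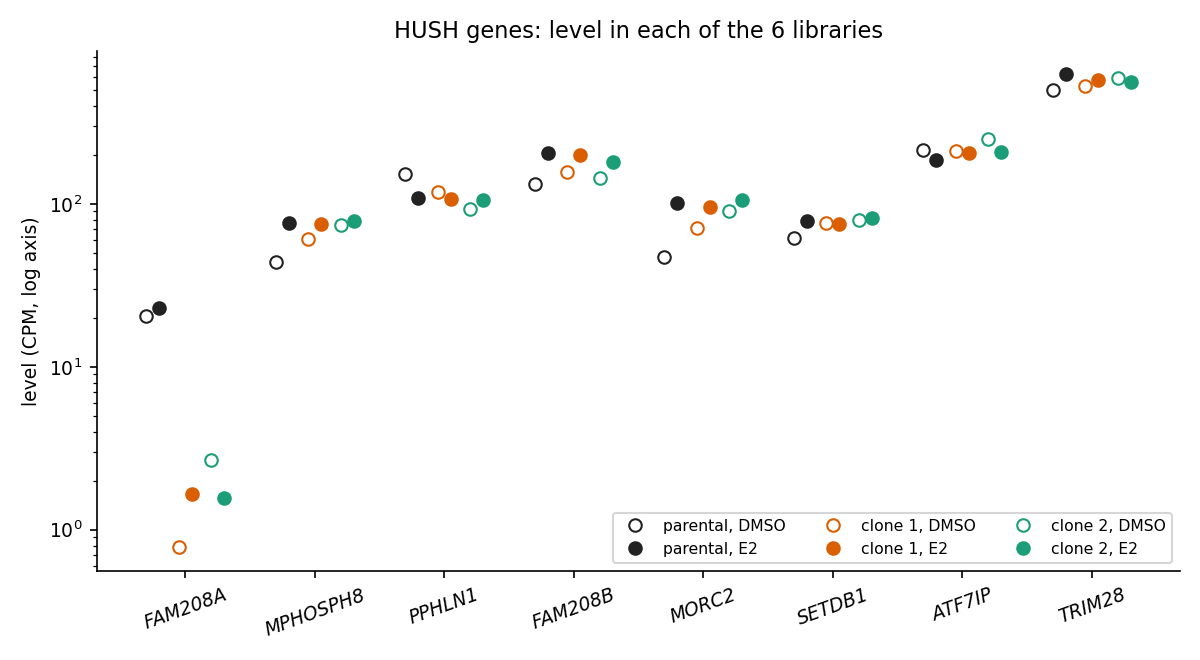
Level of each HUSH gene in the 6 libraries, as CPM on a log axis. Black is the parental line, orange clone 1 and green clone 2, with open circles for DMSO and filled circles for E2; each point is 1 library. The 4 clone points of FAM208A lie between 0.782 and 2.66 CPM, below the parental 20.4 and 22.8 CPM, while in the other genes clone and parental points differ by at most 1.93-fold within a treatment.

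FAM208A was also the least abundant member per length of transcript in the parental line. With counts divided by the length of all annotated exons (GENCODE 29), its parental mean was 2.20 CPM per kb. The writer SETDB1 came next at 9.90 CPM per kb, which is 4.50-fold higher. PPHLN1 (10.7), MORC2 (11.9), MPHOSPH8 (12.2), ATF7IP (15.1) and FAM208B (15.4) followed in CPM per kb, and TRIM28 stood at 138.9 CPM per kb. The parental DMSO and E2 values of SETDB1 (8.72 and 11.1 CPM per kb), PPHLN1 (12.6 and 8.92), MORC2 (7.51 and 16.2) and MPHOSPH8 (8.94 and 15.5) overlap, so their order is not resolved, and the same holds for ATF7IP (16.2 and 14.0) and FAM208B (12.1 and 18.7). With the longest transcript as the length, MPHOSPH8 came next to FAM208A, 4.67-fold higher. FAM208A and TRIM28 lay outside the range of all other members in each parental library.

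The other core subunits did not share the low level of FAM208A. MPHOSPH8, the H3K9me3 reader, stood at 43.9 CPM in the parental DMSO library and 76.2 in parental E2. Its clone values were 60.6 (DMSO) and 75.2 CPM (E2) in clone 1 and 73.8 and 78.4 CPM in clone 2. The parental DMSO library was thus the lowest of the 6, and the 3 E2 libraries ran from 75.2 to 78.4 CPM. The fitted knockout difference was 0.30 (log2, SE 0.18), and 0.003 without the parental DMSO library.

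PPHLN1, the RNA-binding subunit, was at 152.6 CPM in parental DMSO and 108.4 in parental E2. It was at 118.2 (DMSO) and 107.1 CPM (E2) in clone 1 and at 93.0 and 105.8 CPM in clone 2. Here the parental DMSO library was the highest, and the E2 libraries ran from 105.8 to 108.4 CPM. The fitted difference was -0.29 (log2, SE 0.17), and -0.04 without the parental DMSO library.

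Of the partners, MORC2 differed most between the clones and the parental line in DMSO. This chromatin-compacting ATPase was at 47.0 CPM in parental DMSO against 70.6 in clone 1 and 90.8 in clone 2. In E2 it was at 101.7 CPM in parental cells, 95.5 in clone 1 and 105.4 in clone 2. Clone and parental values were separate in DMSO and overlapped in E2. The fitted difference was 0.36 (log2, SE 0.21), and -0.03 without the parental DMSO library. The deposited counts also hold an antisense gene, MORC2-AS1, that overlaps MORC2, at 1.98 to 4.22 CPM; whether counting used strand is not given in the sources used here.

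The methyltransferase gene SETDB1 was at 61.9 CPM in parental DMSO and between 74.97 and 82.2 CPM in the other 5 libraries. Its cofactor ATF7IP was at 214.1 (DMSO) and 184.8 CPM (E2) in parental cells, 212.0 and 204.3 in clone 1, and 249.1 and 207.9 in clone 2. The corepressor TRIM28 was at 497.7 and 622.6 CPM in parental cells, 531.8 and 578.3 in clone 1, and 592.2 and 555.2 in clone 2. FAM208B, the paralog of FAM208A, was at 132.9 and 204.8 CPM in parental cells, 156.6 and 200.7 in clone 1, and 144.4 and 181.8 in clone 2. Their fitted knockout differences were 0.16 (SE 0.13), 0.13 (SE 0.13), 0.02 (SE 0.15) and 0.04 (SE 0.14) on the log2 scale, in the order SETDB1, ATF7IP, TRIM28 and FAM208B. Without the parental DMSO library they were -0.0087, 0.15, -0.14 and -0.11, so that those of SETDB1, TRIM28 and FAM208B changed sign. The 2 paralogs therefore had unlike values, with FAM208B near the parental level in each clone.

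Across the 7 members other than FAM208A, the largest difference of a clone from the parental library of the same treatment was 1.93-fold (MORC2 in clone 2 in DMSO), and in E2 it was 1.13-fold. None of them was 2-fold apart in any of the 4 differences. Between the clones, 0 of 8 members differed at least 1.5-fold between clone 1 and clone 2 in the same direction under both treatments, against 8.46% of all genes tested. For FAM208A itself, clone 1 minus clone 2 was -1.69 on the log2 scale in DMSO and 0.06 in E2.

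**Figure D2:**
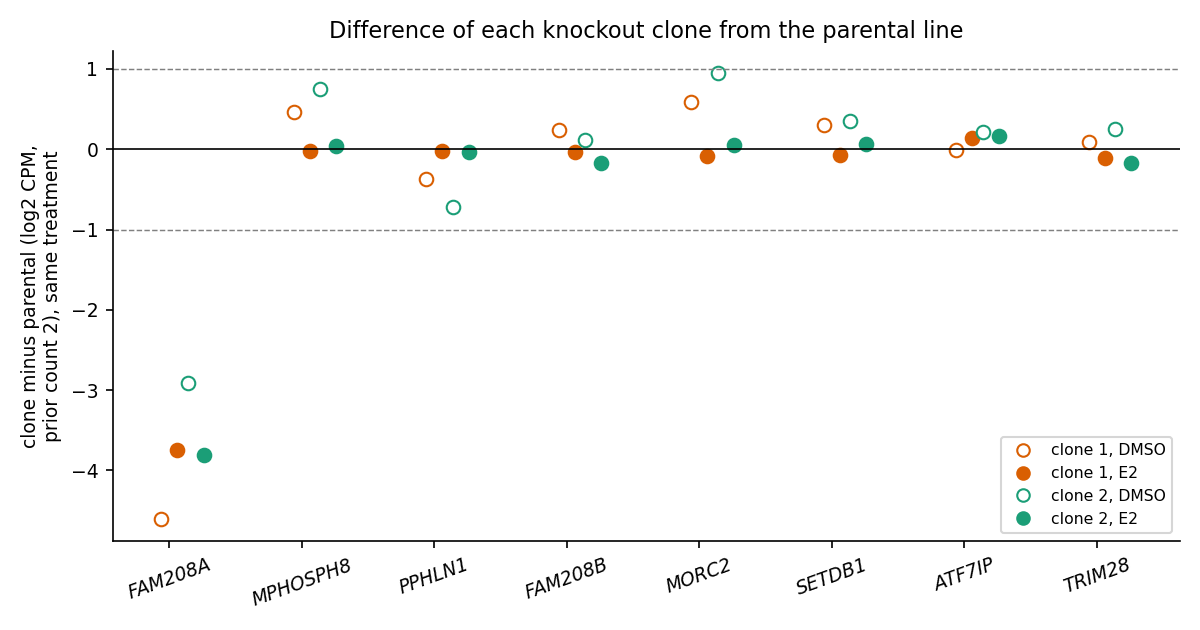
Difference of each knockout clone from the parental library of the same treatment for the 8 genes, in log2 CPM with a prior count of 2; orange is clone 1, green clone 2, open circles DMSO and filled circles E2, and dashed lines mark 2-fold. FAM208A lies between -4.60 and -2.91, and all points of the other 7 genes lie inside the 2-fold lines; the E2 points lie within 0.17 of 0.

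Genes next to FAM208A did not show its pattern. Of the 5 genes on either side in the RefSeq gene table, 3 averaged 2 CPM or more. CCDC66, whose annotated end overlaps that of FAM208A, was at 20.03 and 23.5 CPM in parental cells (DMSO, E2), 21.2 and 27.3 in clone 1, and 20.7 and 24.98 in clone 2. ARHGEF3, on the other side, was at 42.1 and 22.5 CPM in parental cells, 28.2 and 19.0 in clone 1, and 29.2 and 18.2 in clone 2. IL17RD, which encodes an inhibitor of receptor tyrosine kinase signalling, was at 34.4 and 32.7 CPM in parental cells, 25.9 and 21.1 in clone 1, and 42.7 and 26.7 in clone 2. Their mean differences of clones from the parental line were 0.11, -0.41 and -0.25 on the log2 scale, against -3.77 for FAM208A computed the same way.

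**Figure D3:**
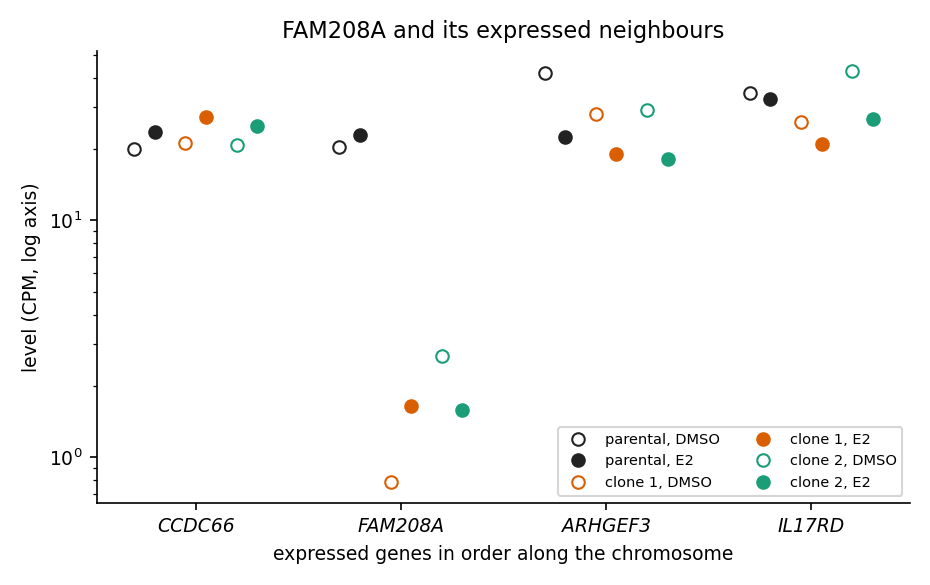
Level of FAM208A and its expressed neighbours in the 6 libraries, as CPM on a log axis, with genes in chromosome order; black is the parental line, orange clone 1, green clone 2, open circles DMSO and filled circles E2. CCDC66 lies between 20.03 and 27.3 CPM in all 6 libraries, while FAM208A in the clones lies at or below 2.66 CPM.

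Genes whose pattern over the 6 libraries was most like that of FAM208A were listed by Pearson's r of log2 CPM among the 12367 genes averaging 2 CPM or more. The 5 highest were GLI1, a transcription factor of hedgehog signalling (r = 0.997), UBE2S, a ubiquitin-conjugating enzyme (0.994), BRMS1 (0.992), the nucleotide hydrolase SAMHD1 (0.986) and the tubulin TUBB4A (0.986). Their knockout differences were smaller than that of FAM208A, at -1.17, -0.45, -0.31, -0.35 and -1.87 on the log2 scale. The targeted gene ETV4 ranked 64 with r = 0.931. Of the other members, PPHLN1 had the highest value at 0.451, and the rest ran from -0.51 to 0.06. These coefficients describe 6 libraries that share lines and treatments, and carry no test. The list depends on the measure. By Spearman's rank correlation, 9 genes reached 1 with FAM208A, and 1 of the 5 named above was among them.

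Whether estrogen changes the HUSH genes was asked with the E2 effect over the 3 lines, a contrast that the choice of members did not use. None of the 8 genes passed edgeR's quasi-likelihood test at an adjusted p of 0.05, where 1.13% of all genes tested did. At an unadjusted p below 0.05 there were 3, beside 20.4% of all genes, and DESeq2 called 1, FAM208B, beside 7.14% of all genes. With the line as a replicate block, 0 of 8 were called against 2.46% of all genes. The median E2 change of the members was 0.12 on the log2 scale, beside -0.02 over all genes.

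FAM208B was higher after E2 in 3 of 3 lines, by 0.62 in parental cells, 0.36 in clone 1 and 0.33 in clone 2 on the log2 scale. The fitted E2 change was 0.44 (SE 0.13, edgeR adjusted p = 0.162). MORC2 was likewise higher in 3 of 3 lines, by 1.11, 0.43 and 0.21, with a fitted change of 0.58 (SE 0.20, edgeR adjusted p = 0.196). MPHOSPH8 was higher by 0.80, 0.31 and 0.09, with a fitted change of 0.39 (SE 0.16, edgeR adjusted p = 0.241). In all 3 genes the parental line had the largest of the 3 differences. When clone 2 was left out, MORC2 and MPHOSPH8 passed the test, at 0.77 and 0.55, where 21.6% of all genes did. Without the parental DMSO library the fitted changes of FAM208B, MORC2 and MPHOSPH8 were 0.33, 0.30 and 0.18, and 0 of 8 members were called.

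FAM208A changed by 0.16 with E2 in parental cells, 1.02 in clone 1 and -0.74 in clone 2 on the log2 scale, so that the clones had opposite signs at levels of 28 to 78 counts. The fitted change was 0.02 (SE 0.40, edgeR adjusted p = 0.981). The fitted changes of PPHLN1 (-0.16, SE 0.16), SETDB1 (0.13, SE 0.12), ATF7IP (-0.18, SE 0.12) and TRIM28 (0.12, SE 0.14) were all at most 1.5 times their standard errors.

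**Figure D4:**
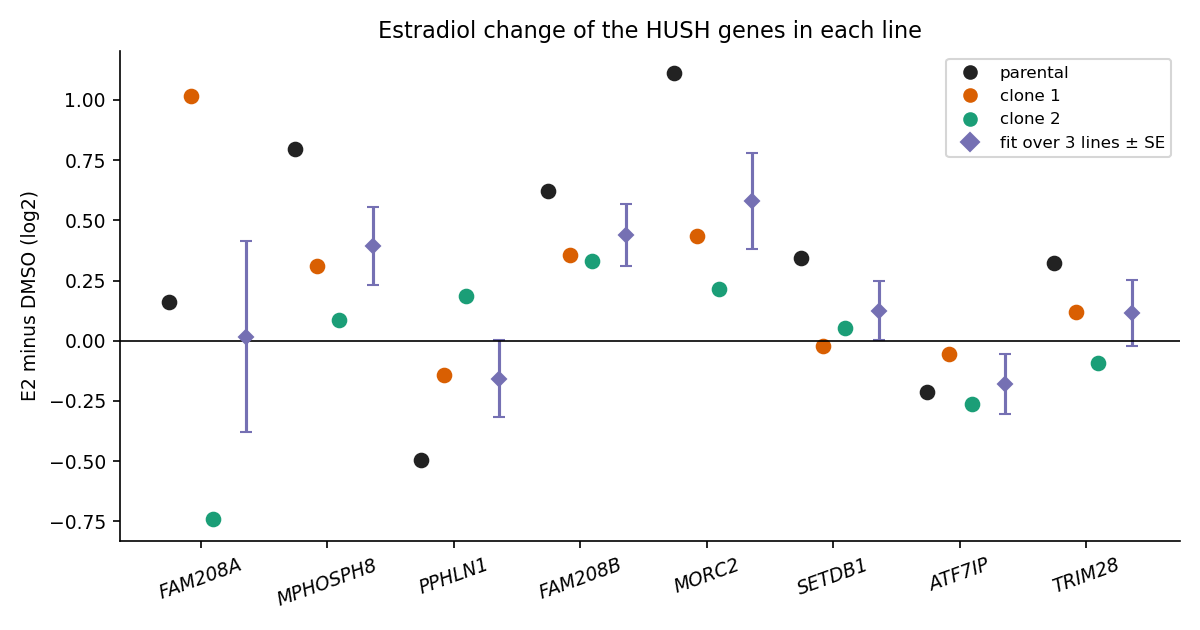
Change with E2 (log2, E2 minus DMSO) of each HUSH gene in the parental line (black), clone 1 (orange) and clone 2 (green), 1 point per line, and the edgeR fit over the 3 lines with its standard error (violet diamonds). MORC2 and MPHOSPH8 have their highest point in the parental line (1.11 and 0.80), and the clone points of FAM208A lie on either side of 0 (1.02 and -0.74).

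The interaction of E2 with genotype tests whether those E2 changes differ between the clones and the parental line. For MORC2 the E2 change was lower in the clones by 0.80 (log2, SE 0.29, edgeR adjusted p = 0.617), and for MPHOSPH8 by 0.60 (SE 0.26, edgeR adjusted p = 0.617). In edgeR 0 of 8 members were called, and so were 0% of all genes tested. At an unadjusted p below 0.05 there was 1 member, MORC2, and 1190 genes in all (7.62%), and limma-voom called 0 members. DESeq2 gave no adjusted p for 4 of the members, MORC2 among them (unadjusted p = 0.0236), and called 0 of the other 4. With the line as a replicate block, MORC2 was called with a difference of -0.79 (SE 0.23, adjusted p = 0.00976), which is 1 of 8 members against 15.8% of all genes. The share of members is no higher than that background. That paired fit left 1 residual degree of freedom and gave no gene a spread of its own. The difference rests on the parental DMSO library, without which it cannot be computed.

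In the clones alone, where FAM208A was low, 0 of 8 members passed edgeR's test of the E2 effect against 0.329% of all genes, and 0 of 8 had an unadjusted p below 0.05. With the replicate block, 0 of 8 were called against 15.0% of all genes, and 2 had an unadjusted p below 0.05, beside 26.0% of all genes. This paired fit, too, left 1 residual degree of freedom and gave no gene a spread of its own. DESeq2 called 0 as well. The highest fitted changes were 0.34 for FAM208B (SE 0.14, edgeR adjusted p = 0.576) and 0.31 for MORC2 (SE 0.17, edgeR adjusted p = 0.671).

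Genes that work with HUSH, or that are known targets of it, were read in the knockout comparison over all 15611 genes. There edgeR called 0.327% (23 genes higher, 0.147%, and 28 lower). All lists were chosen with earlier results of these data known, so their counts and medians are a description. The median difference of all genes was 0.01 on the log2 scale. In edgeR's test here the DMSO and E2 library of a line count as separate replicates, although there are 1 parental line and 2 clones. Its p-values therefore take the 6 libraries as independent. Of 41 heterochromatin partners (methyltransferases, H3K9me3 readers, DNA methylation and chromatin assembly genes, nuclear RNA decay factors), 39 were tested and 0 called, with a median of 0.09. At an unadjusted p below 0.05 there were 5, and DESeq2 called 0. Of all genes, 11.4% had an unadjusted p below 0.05 in this comparison, which is the background for this list and for those that follow. For DESeq2 the background was 1.92% of all genes called higher and 160 of 15611 called lower. Of 12 genes that restrict retroelements, 11 were tested and 0 called in edgeR, with 2 at an unadjusted p below 0.05 and 1 called lower in DESeq2. Of 24 interferon-stimulated genes, which can respond to double-stranded RNA from retroelements, 17 were tested and 0 called in edgeR. There, 5 had an unadjusted p below 0.05, DESeq2 called 1 higher, and the median was 0.04.

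Clustered protocadherin genes, cell surface adhesion genes in tandem arrays that HUSH and SETDB1 are known to bind, were mostly higher in the clones. Of 57 listed, 42 were tested, 38 had a difference above 0 and 2 passed edgeR's test, both higher. Of all 15611 genes, 8070 had a difference above 0. At an unadjusted p below 0.05 there were 19 of the 42, beside 11.4% of all genes. The median difference was 1.11 on the log2 scale, beside 0.01 over all genes. PCDHB13 was at 8.91 and 8.20 CPM in parental cells (DMSO, E2), 23.6 and 19.5 in clone 1, and 28.5 and 21.4 in clone 2, a difference of 1.43 (SE 0.16, edgeR adjusted p = 0.0320). PCDHGB4 was at 15.0 and 11.7 CPM in parental cells, 33.9 and 30.8 in clone 1, and 37.7 and 31.6 in clone 2, a difference of 1.34 (SE 0.14, edgeR adjusted p = 0.0258). For both genes every clone library lay above both parental libraries.

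The 2 larger arrays differed in how evenly the clones shared this. In the PCDHB array, whose genes have a single coding exon, all 18 tested genes had a fitted difference above 0, with a median of 1.34. The median of clone 1 was 1.24 in DMSO and 0.86 in E2, and that of clone 2 was 1.48 and 1.23. In the PCDHG array, the median over 23 tested genes was 1.00, from 0.49 (DMSO) and 0.30 (E2) in clone 1 and 1.39 and 1.03 in clone 2. PCDHG genes share their last exons, so the division of reads among them is uncertain. At least 2-fold higher in both clones under both treatments were 14.3% of the protocadherins (6 of 42), against 0.564% of all genes. Of these, 4 were in the PCDHB array and 2 in the PCDHG array. The share is a description, because the list was chosen with earlier results known and its genes lie side by side. The 6 were PCDHB8, PCDHB13, PCDHB14, PCDHB16, PCDHGB1 and PCDHGB4, named after their values were seen. The 4 that did not pass edgeR's test had adjusted p between 0.0733 (PCDHB14) and 0.262 (PCDHGB1).

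Zinc finger genes are another known class of HUSH and SETDB1 targets. Of 476 genes named ZNF with a number, 443 were tested and 2 passed edgeR's test, both higher. The median was 0.14 on the log2 scale and 317 had a difference above 0, beside 8070 of all 15611 genes. At an unadjusted p below 0.05 there were 52 of the 443, beside 11.4% of all genes. ZNF626 was at 4.37 and 2.57 CPM in parental cells (DMSO, E2), 12.6 and 9.63 in clone 1, and 12.7 and 11.4 in clone 2, a difference of 1.77 (SE 0.21, edgeR adjusted p = 0.0330). ZNF793 was at 6.66 and 8.07 CPM in parental cells, 17.8 and 22.8 in clone 1, and 20.8 and 22.1 in clone 2, a difference of 1.503 (SE 0.15, edgeR adjusted p = 0.0258). At least 2-fold higher in both clones under both treatments were 1.58% of them (7 of 443), against 0.564% of all genes. In DMSO alone, 5.19% were 2-fold higher in clone 1 and 10.2% in clone 2, beside 6.30% and 10.4% of all genes. In E2 alone it was 4.74% in each clone, beside 3.83% and 3.25% of all genes. Members of this family are alike in sequence, and reads can be split among them. The list shares ZNF274 and ZNF638 with the heterochromatin partners.

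Counts in both families moved with single libraries. Without the parental DMSO library the medians were 0.92 for the protocadherin and 0.15 for the zinc finger genes. That fit leaves 1 parental library. Neither family had a gene that passed edgeR's test in it, and nearly no gene of any kind passed, so this says little about the families. Without clone 1 the test called 20 protocadherin and 20 zinc finger genes higher, and without clone 2 it called 12 and 29. Of all genes, 2.44% and 4.12% were called higher in those fits. Called lower were 1 protocadherin and 3 zinc finger genes without clone 1, and 0 and 7 without clone 2. Over all genes, 255 of 15427 and 355 of 15548 were called lower in those fits. DESeq2 called 10 protocadherin and 21 zinc finger genes higher, and 1.92% of all genes. These families were not linked to the level of FAM208A by any test, and ETV4 loss, FAM208A loss and clonal origin cannot be told apart in these libraries.

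**Figure D5:**
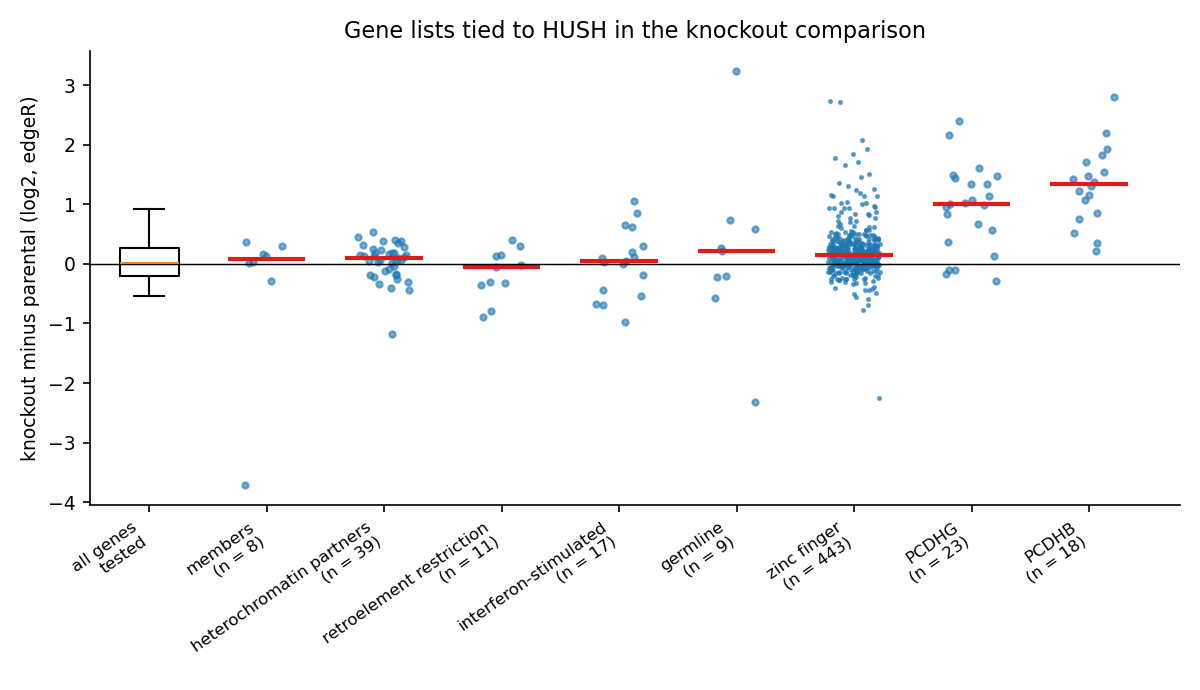
Fitted knockout difference (log2, knockout minus parental, edgeR) of every tested gene of the members and of 7 gene lists, with red lines at the medians; the box for all 15611 genes has the median, the quartiles and whiskers at the 5% and 95% quantiles. The PCDHB and PCDHG medians are 1.34 and 1.00, the other lists have medians between -0.06 and 0.22, and FAM208A is the low point among the members at -3.70.

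Germline genes, which H3K9 methylation helps keep silent in somatic cells, gave 9 tested of 31 listed and 0 called in edgeR, with 2 at an unadjusted p below 0.05, DESeq2 calling 1 higher, and a median of 0.22. Chosen after its values were seen, MAGEC1, a cancer-testis antigen gene, was at 1.88 and 3.50 CPM in parental cells (DMSO, E2), 28.8 and 36.9 in clone 1, and 15.6 and 17.8 in clone 2. Its difference was 3.23 (log2, SE 0.44, edgeR adjusted p = 0.0521), just outside the threshold. MAGEA1 was at least 2-fold lower in all 4 differences, at 0.403 CPM or less in every library.

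With E2, 1 gene of these lists passed edgeR's test over the 3 lines. APOBEC3B, a cytidine deaminase that restricts retroelements, fell by 1.47 on the log2 scale (SE 0.20, edgeR adjusted p = 0.0262). It was at 10.5 CPM in DMSO and 3.79 in E2 in parental cells, 6.36 and 2.13 in clone 1, and 4.92 and 1.95 in clone 2, lower after E2 in 3 of 3 lines. Neither the protocadherins nor the zinc finger genes had a gene called in that comparison in edgeR, with 2 and 65 at an unadjusted p below 0.05 and DESeq2 calling 0 and 13. Over all genes those shares were 20.4% and 7.14%.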

How the data were processed

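RNA-seq counts of 6 libraries were analysed. Per the submitters' processing notes, HISAT2, SAMtools, Subread and DESeq2 were used with build hg19; versions, annotation and use of strand in counting are not given in the sources used here. The deposited raw table holds whole-number counts per gene. The deposited normalized signal equals those counts divided by size factors and was only compared with them. Gene lengths, GC content and promoter windows came from a GRCh38 reference matched by symbol, so lengths may differ from those of the counted models.

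Genes were kept by filterByExpr, scaled by TMM and tested with edgeR 4.0.16 (R 4.3.3), quasi-likelihood, with Benjamini-Hochberg adjustment over all genes tested and an adjusted p threshold of 0.05. The E2 and knockout effects came from 1 model of treatment and genotype. Differences between single libraries used log2 CPM with a prior count of 2. Standard errors are the log2 coefficient divided by the square root of F. Alternatives were median-ratio scaling, 2 other low-count filters, DESeq2 1.42.0, limma-voom (limma 3.58.1), each clone left out and the replicate block. Added after seeing the data were a GC correction, the same with the block, and leaving out the parental DMSO library. The edgeR fits without the block were run on simulated counts that had no effect of line. That check does not cover differences between lines.

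Clone labels join the DMSO and E2 library of the same clone. The difference between the clones correlated between treatments at 0.626 across genes, and line was the block. For the knockout effect the block was a random effect in limma, with an estimated correlation of 0.113.

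The members and all lists were chosen with earlier results of these data known. Genes named besides the 8 members and ETV4 are expressed neighbours of FAM208A, the 5 genes most correlated with it, and up to 5 called genes per list and direction; other names are marked in the text as chosen after their values were seen. With 1 or 2 libraries per group, precision is limited by the number of libraries and, for FAM208A in the clones, by its low counts.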

Additional observations from a re-analysis of the deposited data

Results flagged for a closer look

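The E2 change of MORC2 differed between the clones and the parental line when the line was a replicate block, by -0.79 on the log2 scale. MORC2 changed by 1.11 in parental cells, 0.43 in clone 1 and 0.21 in clone 2. It was raised by a test of the difference itself, which was not past the threshold in edgeR without the block (adjusted p = 0.617). The fit with the block called 15.8% of all genes, and 1 of 8 members is no higher a share. That fit left 1 residual degree of freedom and gave no gene a spread of its own. The difference rests on the parental DMSO library, without which it cannot be computed.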

How the results depend on the processing

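In the E2 effect over the 3 lines, 0 members were called except 1 with DESeq2 and 0 to 2 when a clone was left out. Of all genes, DESeq2 called 7.14%. Without clone 1 the test called 745 of 15427 genes, and without clone 2 it called 3353 of 15548. In the interaction the count was 1 with the replicate block, where 15.8% of all genes were called. It was 2 with GC correction and block, where 1941 of 15106 genes were called. In the clones alone it was 1 with GC correction and block, where 2466 of 14464 genes were called. The block changed no other member's call. In the knockout comparison, zinc finger genes called higher numbered 21 with DESeq2 and 20 to 29 with a clone left out. The protocadherin counts were 10 and 12 to 20. Of all genes, 1.92% were called higher with DESeq2, 2.44% without clone 1 and 4.12% without clone 2. Without the parental DMSO library neither family had a called gene, and nearly no gene of any kind was called. In the same knockout comparison the 4 other lists, with 39, 17, 9 and 11 genes tested, had 0 called genes. They had 1 with no filter, 3 with DESeq2, 3 to 5 with a clone left out and 1 with GC correction. Over all genes, 54 of 20597 were called with no filter, 460 of 15611 with DESeq2 and 55 of 15106 with GC correction. Without clone 1, 631 of 15427 genes were called, and without clone 2, 996 of 15548. The causes were not tested. No called member value turned sign. Over the 4 comparisons, signs turned in 34 of the alternatives for a member and held in 302. In the knockout comparison 7 turned: FAM208B was -0.04 without clone 1 and -0.11, MORC2 -0.03, SETDB1 -0.0087 and TRIM28 -0.14 without the parental DMSO library, and TRIM28 was -0.006 without clone 2 and -0.075 with GC correction. For the E2 effect FAM208A was -0.25 without clone 1 (0.45 without clone 2) and -0.10 without the parental line or its DMSO library. PPHLN1 was 0.0032 without the parental line, and SETDB1 -0.0013 and TRIM28 -0.0052 without the parental DMSO library. TRIM28 was -0.063 with GC correction and -0.065 with the block added; leaving out a clone gave SETDB1 up to 0.17 and TRIM28 up to 0.22. For the interaction FAM208A was 0.047 with limma-voom and 0.85 without clone 2 (-0.90 without clone 1), and ATF7IP was -0.17 with GC correction, -0.16 with the block added and -0.049 without clone 1 (0.16 without clone 2). TRIM28 was 0.044 and 0.042 with those 2 corrections. In the clones alone FAM208A was 0.20 with limma-voom, 0.033 with the block, 0.015 with GC correction and block, and 1.02 without clone 2 (-0.74 without clone 1). With no filter PPHLN1 was -0.0052, SETDB1 -0.00064 and TRIM28 -0.0046. Without clone 2 PPHLN1 was -0.14 and SETDB1 -0.022 (0.19 and 0.052 without clone 1), and TRIM28 was -0.093 without clone 1 (0.12 without clone 2), -0.054 with GC correction and -0.057 with the block added. The low counts of FAM208A in the clones, 28 to 78, limit its E2 changes.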
